A study of Mus musculus with 12 samples.

Results

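The question examined was whether astrocytes of the mouse cerebral cortex respond differently to early separation from the dam when they lack the glucocorticoid receptor. For each gene the response to separation was measured in each genotype as the log2 ratio of separated over control libraries. The response in Cre- animals was then subtracted from the response in AGR cKO animals. This difference, the log2 interaction, is 0 where both genotypes respond alike and negative where the AGR cKO response lies below the Cre- response. All 45777 genes of the count table belong to the comparison, and 19163 of them had enough reads to be tested.

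The 12 libraries hold 4 groups of 3, all of astrocytes taken at postnatal day 14. Cre- control and Cre- ESD animals carry floxed alleles of Nr3c1, the glucocorticoid receptor gene. AGR cKO control and AGR cKO ESD animals carry the same floxed alleles and the Aldh1l1-CreERT2 transgene, in which the astrocyte promoter Aldh1l1 drives a recombinase that acts once tamoxifen is present. ESD pups were kept apart from the dam for 3 hours a day from postnatal day 1 to 14, and control pups were not. Every group, controls included, received 4-hydroxytamoxifen from postnatal day 5 to 7, so separation began before the recombinase was activated. Only the AGR cKO groups carry the transgene, so loss of the receptor and presence of the recombinase cannot be told apart. The strain was not given in the labels, nor whether libraries of a group came from separate animals or pools. The p-values therefore measure the spread between these libraries, which may be technical.

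The glucocorticoid receptor is a transcription factor held in the cytoplasm by heat shock protein chaperones until corticosterone, the stress hormone of rodents, binds it. It then enters the nucleus and induces genes such as Fkbp5, Tsc22d3 (GILZ), Sgk1 and Zbtb16, and represses others. In the brain the same hormone also binds the mineralocorticoid receptor, encoded by Nr3c2. Astrocytes also engulf synapses and debris through Mertk, a receptor tyrosine kinase bridged to its targets by Gas6 and Pros1, and through Megf10.

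Library totals ranged from 42603546 to 52130081 counts. Nr3c1 stood at 214, 210 and 237 CPM (counts scaled to library size) in Cre- control, 209, 205 and 199 in Cre- ESD, 102, 93.2 and 108 in AGR cKO control and 90.5, 66.6 and 95.9 in AGR cKO ESD libraries. Every AGR cKO library was below every Cre- library in both conditions, and counts over the whole gene can take in transcripts that lack the deleted part. The difference between the genotypes' separation responses for Nr3c1 was -0.15 ± 0.17 (SE; 95% interval -0.52 to 0.21). Of 20 astrocyte markers all 20 were tested, led by the glutamine synthetase gene Glul (6557 TPM, a level per transcript length) and the glutamate transporter genes Slc1a2 (6159 TPM) and Slc1a3 (5846 TPM). Their interactions ran from -0.15 to 0.21 with a median of 0.02, and Aldh1l1, whose promoter drives the recombinase, stood at 0.07 ± 0.18.

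No gene passed the test of the interaction (edgeR quasi-likelihood test, Benjamini-Hochberg adjusted p under 0.05; 0% of 19163 genes), and the smallest adjusted p was 0.904. At an unadjusted p under 0.05 there were 860 genes, or 4.49% of those tested, with 490 on the higher side (2.56%) and 370 on the lower side (1.93%). The same fit called 0 genes for separation within Cre- and 0 within AGR cKO, where 1378 (7.19%) and 1453 (7.58%) had an unadjusted p under 0.05. DESeq2 called 7 interaction genes, among them Fzd10, Sez6l2, Slc17a7, Zbtb16, Il4i1 and Cacng8, with adjusted p from 0.00512 to 0.0183. Limma-trend on deposited TPM values called 0.

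**Figure D1:**
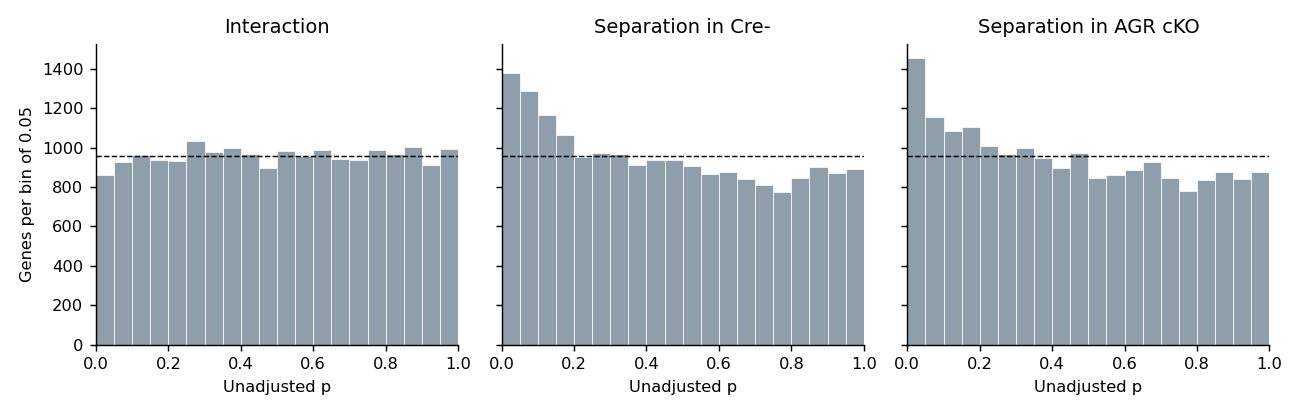
Number of genes (y axis) in each bin of 0.05 of the unadjusted p (x axis) for the interaction and for separation within each genotype, with a dashed line where an even spread would lie. The first interaction bin holds 860 genes, against 1378 and 1453 for separation in Cre- and in AGR cKO.

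The intervals show which differences in response remain possible. Across the 11763 genes averaging 5 CPM or more, the median SE of the interaction was 0.162 and 10396 genes (88.4%) had a 95% interval lying wholly within 1 log2 unit of 0. Below 5 CPM this held for 1125 of 7400 genes (15.2%), so for most genes there a difference of 1 log2 unit remained possible. These intervals are per gene and not adjusted for the number of genes tested, so they do not say which differences the adjusted test could call. Among the genes of at least 5 CPM the responses in the 2 genotypes, which share no library, had a Pearson coefficient of 0.26 and a Spearman coefficient of 0.33 across genes, and 38.9% of genes had responses of opposite sign. These correlations are across genes, which are not independent replicates, and all libraries share the scaling.

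**Figure D2:**
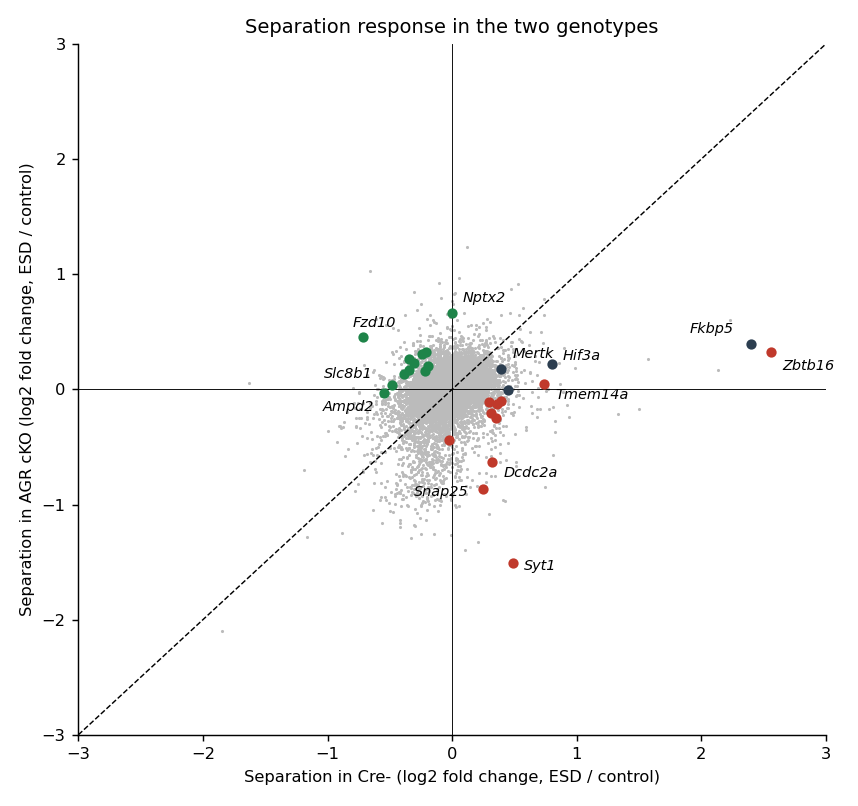
Log2 response to separation in Cre- (x axis) and AGR cKO (y axis) for 11761 genes averaging 5 CPM or more (2 more lie outside the axes), where the dashed line marks equal responses. Green and red points are genes with the smallest interaction p, 12 on the higher and 11 on the lower side, dark points are Mertk, Hif3a, Fkbp5 and Tsc22d3, and Zbtb16 lies at 2.56 in Cre- and 0.32 in AGR cKO.

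Zbtb16, a zinc finger transcription factor induced by glucocorticoids (chromosome 9, 48651797 to 48836225, mm10), had the most negative interaction of the 12 genes with the smallest p on the lower side. It stood at 13.0, 10.8 and 11.3 CPM in Cre- control and at 54.5, 48.7 and 104 CPM in Cre- ESD libraries, against 8.88, 11.3 and 9.21 CPM in AGR cKO control and 7.25, 10.6 and 19.0 CPM in AGR cKO ESD libraries. All 3 Cre- ESD libraries were above the other 9, while the AGR cKO groups overlapped each other. Had the AGR cKO libraries followed the Cre- fold, the AGR cKO ESD level would have been 57.9 CPM, against a measured mean of 12.3 ± 6.06 CPM (SD, n = 3). The interaction was -2.24 ± 0.48 (95% interval -3.28 to -1.20, unadjusted p = 0.00055 and adjusted p = 0.98 by edgeR), and -1.82 without Cre- ESD 3, its highest library. The AGR cKO level of Zbtb16 relative to Cre- was -2.49 ± 0.35 (log2) under separation, a difference that edgeR called along with 1.04% of all genes (adjusted p = 0.0185). In control libraries it was -0.25 ± 0.34 and was not called (adjusted p = 0.866, with 0.0157% of all genes called), and the test of the difference between these values is the interaction above, which did not pass.

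The interactions of the other glucocorticoid-responsive genes lay on both sides of 0. Of 26 list members, all tested, 9 had an interaction above 0 and 17 below. Their median was -0.13 against 0.02 for all genes tested. In this list Zbtb16 alone had an unadjusted p under 0.05, as did 4.49% of all genes. Fkbp5, the co-chaperone that lowers the receptor's affinity for hormone, stood at 6.85, 9.53 and 7.17 CPM in Cre- control, 11.1, 9.93 and 103 in Cre- ESD, 3.95, 4.04 and 3.54 in AGR cKO control and 3.35, 5.23 and 6.62 CPM in AGR cKO ESD libraries. All Cre- ESD libraries were above those of the other groups, but only Cre- ESD 3 was far above the other 11. The interaction of Fkbp5 was -2.002 ± 1.02 (interval -4.23 to 0.23, adjusted p = 0.999) with that library and -0.02 without it.

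Other targets showed the same library standing apart. Hif3a, an inhibitory hypoxia-inducible factor subunit, stood at 103, 171 and 115 CPM in Cre- control libraries and at 191, 125 and 362 CPM after separation in Cre-, against 26.5 to 50.2 CPM in the 6 AGR cKO libraries. Its interaction of -0.58 ± 0.49 became -0.06 without Cre- ESD 3. Tsc22d3, which encodes the anti-inflammatory protein GILZ, stood at 140, 152 and 367 CPM in Cre- ESD and its interaction went from -0.46 ± 0.44 to 0.13. The median of the glucocorticoid-responsive list went from -0.13 to 0.23 without Cre- ESD 3, so the sign of that median rests on 1 library. Sgk1, a kinase that regulates ion transport, stood at -0.19 ± 0.40 (interval -1.08 to 0.69), and its groups overlapped within both genotypes.

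Genes that handle the hormone or hold the receptor ready for it were spread around 0. In the list of corticosteroid receptors, steroid-activating enzymes and chaperones, 18 of 19 members were tested, with 11 above 0, 7 below and a median of 0.06. Stip1, the co-chaperone that joins Hsp70 to Hsp90, stood at 75.7, 68.3 and 66.1 CPM in Cre- control, 52.5, 62.3 and 62.2 in Cre- ESD, 64.1, 61.8 and 63.7 in AGR cKO control and 76.9, 70.5 and 65.9 CPM in AGR cKO ESD libraries. Separated libraries were all below controls in Cre- and all above controls in AGR cKO, an arrangement found in either order in 80 of the genes tested (0.417%). Its interaction was 0.42 ± 0.12 (unadjusted p = 0.00569, adjusted p = 0.999), and that of Fkbp4, the co-chaperone that favours hormone binding, was 0.33 ± 0.14 (adjusted p = 0.999). The mineralocorticoid receptor gene Nr3c2 stood at -0.02 ± 0.17, Hsp90ab1 at 0.10 ± 0.18 and Hsd11b1, the enzyme that regenerates active corticosterone, at -0.21 ± 0.30.

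On the higher side the smallest unadjusted p belonged to Fzd10, a Frizzled receptor for Wnt ligands (chromosome 5, 128601106 to 128604093, mm10). It stood at 51.7, 57.9 and 72.5 CPM in Cre- control and 34.1, 35.5 and 41.6 CPM in Cre- ESD libraries, against 47.3, 44.7 and 42.6 CPM in AGR cKO control and 65.4, 49.0 and 69.6 CPM in AGR cKO ESD libraries. Separated libraries were all below controls in Cre- and all above controls in AGR cKO. At the Cre- fold the AGR cKO ESD level would have been 27.4 CPM, against a measured 61.4 ± 10.9 CPM (SD, n = 3). The interaction was 1.16 ± 0.21 (interval 0.71 to 1.62, unadjusted p = 0.000129, adjusted p = 0.904 by edgeR), and it ranged from 1.02 to 1.303 when each library was left out in turn.

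Cacng8, an auxiliary subunit of AMPA-type glutamate receptors (chromosome 7, 3394042 to 3416266), came next by unadjusted p (0.000324). Its levels were 19.97, 20.2 and 21.0 CPM in Cre- control, 16.9, 17.5 and 17.4 in Cre- ESD, 15.7, 16.4 and 16.9 in AGR cKO control and 21.4, 19.4 and 19.8 CPM in AGR cKO ESD libraries. Cre- ESD and AGR cKO control overlapped each other, as did Cre- control and AGR cKO ESD, while separated and control libraries did not overlap within either genotype. The interaction was 0.55 ± 0.11 (interval 0.31 to 0.78, adjusted p = 0.904). Abcb9, a peptide transporter of the lysosomal membrane, followed at 0.60 ± 0.12, with Cre- ESD at 37.2 to 39.4 CPM and the other 9 libraries at 42.9 to 55.3 CPM.

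Each of the 12 genes named on the higher side had an interaction between 0.38 and 1.16. Since they were chosen by their interaction p, their arrangement is a description only: Cre- ESD libraries were below all Cre- controls for 11 of the 12 (6.39% of all genes), AGR cKO ESD libraries above all AGR cKO controls for 8 (7.94%), and both held for 7 (0.417% of all genes, in either order). Slc8b1, the mitochondrial sodium-calcium exchanger, stood at 49.2, 49.1 and 47.0 CPM in Cre- ESD libraries and between 62.5 and 75.8 CPM in the other 9. Ampd2, an AMP deaminase, likewise stood at 80.4, 90.9 and 98.6 CPM in Cre- ESD libraries and between 108 and 137 CPM in the other 9. For both genes only the Cre- ESD group was set apart. Nptx2, a secreted pentraxin that clusters AMPA receptors, was instead set apart in AGR cKO ESD libraries, at 16.8, 14.4 and 15.4 CPM against 9.40 to 13.5 CPM elsewhere. Ngef, a guanine nucleotide exchange factor downstream of Eph receptors (0.40 ± 0.09), Gas1, a hedgehog co-receptor (0.38 ± 0.09), and Dact3, a Dishevelled-binding Wnt antagonist (0.52 ± 0.13), had Cre- ESD libraries below all their controls. For Ngef and Gas1 the AGR cKO ESD libraries were also above all other libraries.

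**Figure D3:**
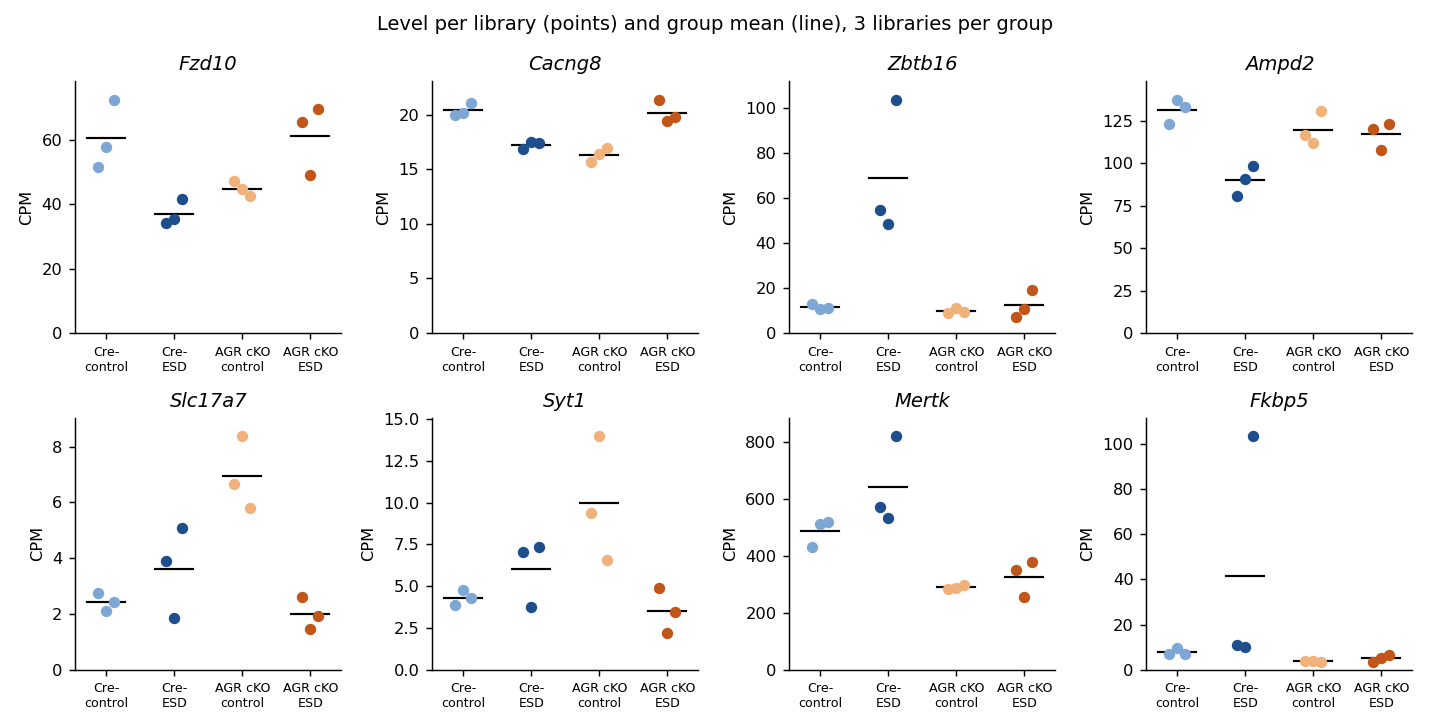
CPM (y axis) of 8 genes in each library (points) of the 4 groups (x axis), with a line at the group mean. Fzd10 and Cacng8 run in opposite directions in the genotypes, Zbtb16 is high only in Cre- ESD and Ampd2 is low only in Cre- ESD. Slc17a7 is highest in AGR cKO control, with 1 Cre- ESD library close below, and Fkbp5 is high in 1 Cre- ESD library.

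The same pattern of 1 group apart was counted over all 547 genes with an unadjusted p under 0.05 and at least 5 CPM, of which 370 were on the higher and 177 on the lower side. Of the 370, the 3 Cre- ESD libraries were the lowest of the 12 in 107 (28.9%) and the 3 AGR cKO ESD libraries the highest in 67 (18.1%). Among all 11763 genes at that level these arrangements occurred in 2.47% and 2.27%. Of the 177 on the lower side, the Cre- ESD libraries were the highest in 24 (13.6%, against 0.808% of all genes at that level) and the AGR cKO ESD libraries the lowest in 17 (9.6%, against 0.918%). The genes were chosen by the same contrast, so these shares describe them and support nothing.

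The lower side held several genes of neurons. Slc17a7, the vesicular glutamate transporter of excitatory neurons (chromosome 7, 45163921 to 45176139), stood at 2.75, 2.11 and 2.44 CPM in Cre- control, 3.91, 1.86 and 5.10 in Cre- ESD, 6.67, 8.36 and 5.81 in AGR cKO control and 2.59, 1.47 and 1.93 CPM in AGR cKO ESD libraries. The AGR cKO control libraries were above the other 9, and the Cre- groups overlapped. Its interaction was -2.37 ± 0.46 (interval -3.38 to -1.35, adjusted p = 0.904). Syt1, the calcium sensor of synaptic vesicles, stood at -1.997 ± 0.48 (interval -3.06 to -0.94), with 9.40, 14.0 and 6.58 CPM in AGR cKO control and 4.88, 2.19 and 3.46 CPM in AGR cKO ESD libraries. Snap25, a vesicle fusion protein, stood at -1.11 ± 0.31.

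The neuron marker list as a whole lay on the same side. All 20 markers were tested, 19 of them had an interaction below 0, 6 had an unadjusted p under 0.05 on the lower side (1.93% of all genes), and the median was -0.80 against 0.02 for all genes tested. The median was -0.29 over the 8 markers of at least 5 CPM, -0.44 on log2(TPM + 1) values and -0.53 without Cre- ESD 1. The mean log2 level of the list, centred over the 12 libraries, was 0.43, 0.55 and 0.30 in AGR cKO control, -0.17, -0.47 and -0.24 in AGR cKO ESD, -0.10, -0.03 and -0.30 in Cre- control and 0.37, -0.12 and -0.21 in Cre- ESD libraries. The AGR cKO controls were high, and so was Cre- ESD 1. The list's summed level, by contrast, ran from 584.8 to 734.9 CPM among Cre- controls and from 733.7 to 764.0 CPM among Cre- ESD libraries. For AGR cKO it ran from 729.0 to 802.6 CPM among controls and from 716.0 to 791.9 CPM among ESD libraries. That sum is made up mainly of the dendrite gene Map2 (494 CPM on average), whose interaction was -0.06 ± 0.15, while 0 to 2 of the 20 markers had no read in a library and Neurod2 (0.148 CPM), Neurod6 (0.231 CPM) and Slc32a1 (0.306 CPM), which mark neuron subtypes, were near 0. In such bulk libraries the number of neurons, the neuronal RNA per cell and any other source of these transcripts cannot be told apart.

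With the neuron marker level as a covariate in the same fit, the interaction became -1.92 for Slc17a7, -0.92 for Syt1 and -0.03 for Snap25. It stood at 1.03 for Fzd10 and -2.73 for Zbtb16, and for Ampd2 it became 0.27 from 0.51. The count at an unadjusted p under 0.05 was then 334. The neuron marker level differed between AGR cKO control and ESD libraries, so the covariate overlaps the contrast. Genes with an interval within 1 log2 unit of 0 fell from 11521 to 8129, so a lower count need not mean smaller differences. Some values moved away from 0: Fkbp5 to -4.19, and the glucocorticoid-responsive, interferon-stimulated and cell cycle medians to -0.55, -1.24 and 1.18. Slc17a7, Syt1 and Snap25 belong to the marker list, so for them the covariate is not an independent measure.

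Other genes of the lower side were not neuronal markers. Gatm, the first enzyme of creatine synthesis, stood at 134, 130 and 142 CPM in Cre- control and 161, 169 and 168 CPM in Cre- ESD libraries, with AGR cKO groups that overlapped (-0.41 ± 0.11). Rbm3, a cold-induced RNA-binding protein (-0.52 ± 0.14), and Adamts9, a secreted metalloprotease (-0.48 ± 0.14), likewise had Cre- ESD libraries above all Cre- controls. Tmem14a, a small membrane protein, stood at 13.7, 12.8 and 14.1 CPM in Cre- ESD libraries and at 7.36 to 10.5 CPM in the other 9. Of the 12 genes named on the lower side, 7 had Cre- ESD libraries above all their controls (4.68% of all genes), 5 had AGR cKO ESD libraries below all theirs (8.65%), and 0 had both. The ribosomal protein gene Rps14 (-0.49) has near-identical copies in the genome, so its value is uncertain.

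**Figure D4:**
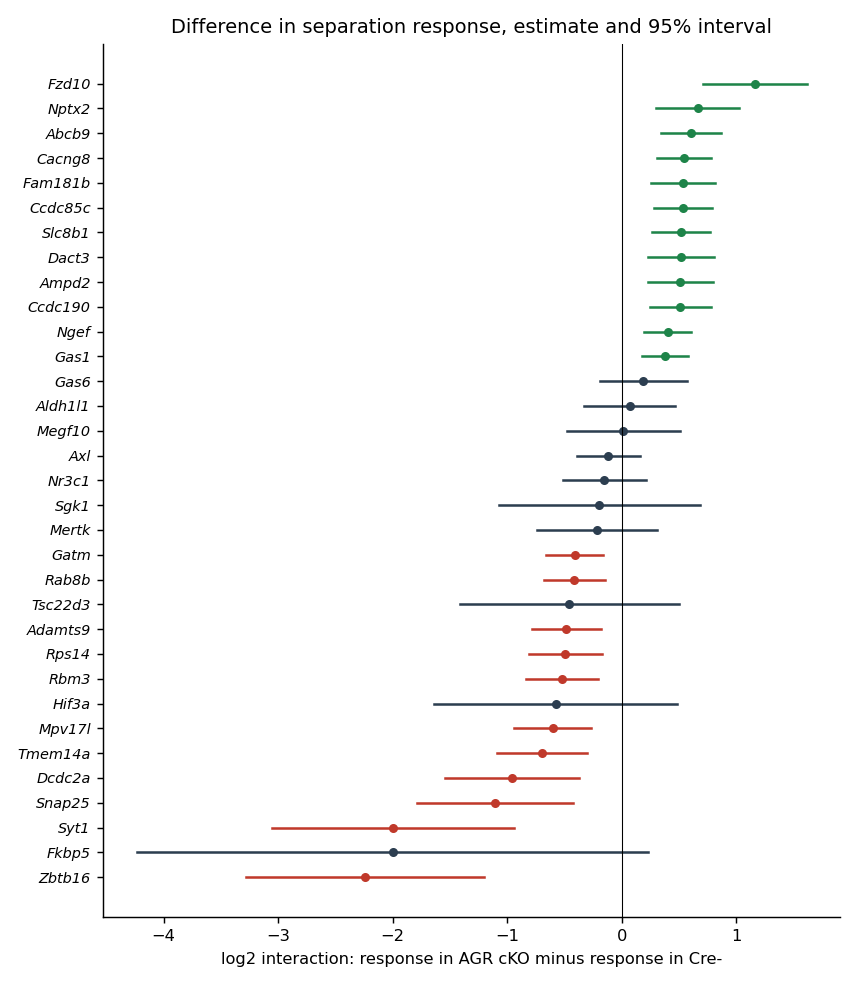
Log2 interaction with its 95% interval (x axis) for genes with the smallest p, 12 on the higher (green) and 11 on the lower side (red), and for 10 genes always given (dark). Fzd10 lies at 1.16 and Zbtb16 at -2.24, while the intervals of Mertk, Gas6, Axl, Megf10, Nr3c1 and Fkbp5 span 0.

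Sez6l2 and Il4i1 were called by DESeq2 but lay outside the naming rule by their level. Sez6l2 stood at 5.24, 6.06 and 5.65 CPM in AGR cKO control, 2.99, 2.33 and 2.25 CPM in AGR cKO ESD and 3.28 to 4.95 CPM in the 6 Cre- libraries, and edgeR gave it -1.38 ± 0.25 (adjusted p = 0.904). Il4i1, an amino acid oxidase gene, had 0, 0 and 2 reads in Cre- control, 35, 41 and 0 in Cre- ESD, 13, 26 and 21 in AGR cKO control and 0 in each AGR cKO ESD library. With groups at or near 0 reads, no fold is given for it.

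No engulfment gene passed the test, where 0% of all genes tested passed, and the values of the list centred near 0. Mertk, the receptor, stood at 429, 512 and 520 CPM in Cre- control, 570, 534 and 818 in Cre- ESD, 284, 285 and 296 in AGR cKO control and 349, 255 and 376 CPM in AGR cKO ESD libraries. Cre- ESD libraries were all above Cre- controls (4.68% of all genes), and the AGR cKO groups overlapped at a lower level. Separation within Cre- called 0 genes, so this rise of Mertk was not called. At the Cre- fold the AGR cKO ESD level would have been 380 CPM, against a measured 327 ± 63.7 CPM (SD, n = 3). The interaction was -0.22 ± 0.24 (interval -0.74 to 0.31, unadjusted p = 0.388, adjusted p = 0.999), and -0.00047 without Cre- ESD 3. A p of this size does not show that the responses were alike.

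The ligand Gas6 stood at 106, 108 and 106 CPM in Cre- control, 87.5, 77.3 and 117 in Cre- ESD, 61.9, 62.9 and 57.7 in AGR cKO control and 58.1, 60.1 and 64.9 CPM in AGR cKO ESD libraries. Its groups overlapped within both genotypes, and its interaction was 0.19 ± 0.17 (interval -0.19 to 0.57), with 0.068 without Cre- ESD 2 and 0.38 without Cre- ESD 3. The other ligand, Pros1, stood at -0.18 ± 0.17, the related receptor Axl at -0.12 ± 0.13 (interval -0.39 to 0.16), and Megf10, a separate engulfment receptor, at 0.01 ± 0.23 (interval -0.48 to 0.50). Of the 22 engulfment genes, all tested, 12 lay above 0 and 10 below with a median of 0.01. Itgb5, an integrin subunit that works with Mfge8, alone had an unadjusted p under 0.05 (0.31 ± 0.13), as did 4.49% of all genes. The 22 lysosome and phagosome genes split 10 to 12 with a median of -0.01.

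Cholesterol synthesis genes leaned to the higher side. Of 23, all tested, 21 lay above 0 and 2 below, and 4 had an unadjusted p under 0.05 on the higher side (2.56% of all genes). Their medians were 0.18 for the interaction, -0.06 for separation in Cre- and 0.11 in AGR cKO, against 0.02, -0.02 and 0.00 for all genes tested. Nsdhl, a sterol dehydrogenase, stood at 101, 104 and 102 CPM in AGR cKO control and 119, 114 and 123 CPM in AGR cKO ESD libraries, with Cre- groups that overlapped (0.30 ± 0.08). Mvd, the decarboxylase of the mevalonate pathway, stood at 72.7, 67.5 and 68.3 CPM in Cre- control and 52.7, 56.8 and 54.4 CPM in Cre- ESD libraries, with AGR cKO groups that overlapped (0.39 ± 0.12). The other two were the prenyl transferase gene Fdps (0.31 ± 0.12) and the squalene epoxidase gene Sqle (0.22 ± 0.09). The list median ran from 0.14 to 0.21 when each library was left out.

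Clock genes divided evenly. Of 19, 10 lay above 0 and 9 below, with a median of 0.05 that ran from -0.084 without Cre- ESD 2 to 0.14 without Cre- ESD 3. Cry1, a repressor of the clock, stood at 41.6, 40.6 and 42.5 CPM in AGR cKO control and 36.8, 33.9 and 36.8 CPM in AGR cKO ESD libraries, with Cre- groups that overlapped (-0.41 ± 0.16, adjusted p = 0.999). Its activator Arntl (BMAL1) stood at 39.6, 40.6 and 41.7 CPM in AGR cKO control and 47.3, 44.2 and 44.7 CPM in AGR cKO ESD libraries (0.22 ± 0.09), and Rorb, a nuclear receptor, at 0.36 ± 0.16.

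No marker of vessels or blood passed the test, where 0% of all genes tested passed. The medians of these markers moved widely with single libraries. The 14 endothelial markers split 4 above and 10 below 0 with a median of -0.11, which was -0.93 without Cre- control 1 and 0.29 without AGR cKO control 3. All 14 mural cell and fibroblast markers had an interaction below 0, with 0 at an unadjusted p under 0.05 (4.49% of all genes). Their AGR cKO response had a median of -0.77, their Cre- response one of -0.15 and their interaction one of -0.61. That median was -0.24 without Cre- ESD 3. Their summed level ran from 3089 to 6094 CPM among Cre- controls and from 3051 to 6177 CPM among Cre- ESD libraries. For AGR cKO it ran from 5422 to 6247 CPM among controls and from 1983 to 4414 CPM among ESD libraries, which did not overlap. Myh11, a smooth muscle myosin (-0.90 ± 0.54), stood at 34.9, 30.2 and 28.9 CPM in AGR cKO control libraries. In AGR cKO ESD libraries it stood at 16.6, 8.30 and 22.01 CPM, all lower, an arrangement found in 8.65% of all genes. All 5 erythroid genes lay below 0, with a median of -0.998 that was -1.79 without AGR cKO ESD 3, -0.67 without AGR cKO ESD 2 and 0.0051 with the neuron covariate. Their AGR cKO summed levels were 82.86 to 138.2 CPM for controls against 25.39 to 107.3 CPM for ESD libraries. Microglia markers, 20 in all, split 10 to 10 with a median of -0.01, which was -0.58 without Cre- control 1 and 0.39 without AGR cKO control 3. Their summed level ran from 200.6 to 1237 CPM over the libraries. The part of these cell populations in the other interactions was not tested beyond the covariate fits.

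Proliferation genes leaned higher without any member reaching an unadjusted p under 0.05, which 4.49% of all genes reached. Of 21 cell cycle genes, 19 lay above 0 with a median of 0.41, and the median was -0.01 without Cre- control 1. Ccna2, a cyclin, stood at 26.8, 13.2 and 11.9 CPM in AGR cKO ESD libraries and at 10.7 to 22.2 CPM elsewhere. Of 18 interferon-stimulated genes 14 lay below 0 with a median of -0.22, which ran from -0.67 without AGR cKO ESD 2 up to 0.015 when AGR cKO ESD 1 was left out. Among them Ifit3 (-1.20 ± 0.47) and Ifit2 (-0.80 ± 0.30) were the 2 with the smallest p. For both, Cre- ESD libraries lay above all Cre- controls (4.68% of all genes). The list's Cre- response had a median of 0.02, with 10 of 18 members above 0. Among 20 synapse-regulating factors of astrocytes, 6 lay above 0 and 14 below (median -0.04), with the smallest p for Chrdl1, the secreted factor that matures AMPA receptors at synapses (0.53 ± 0.24).

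**Figure D5:**
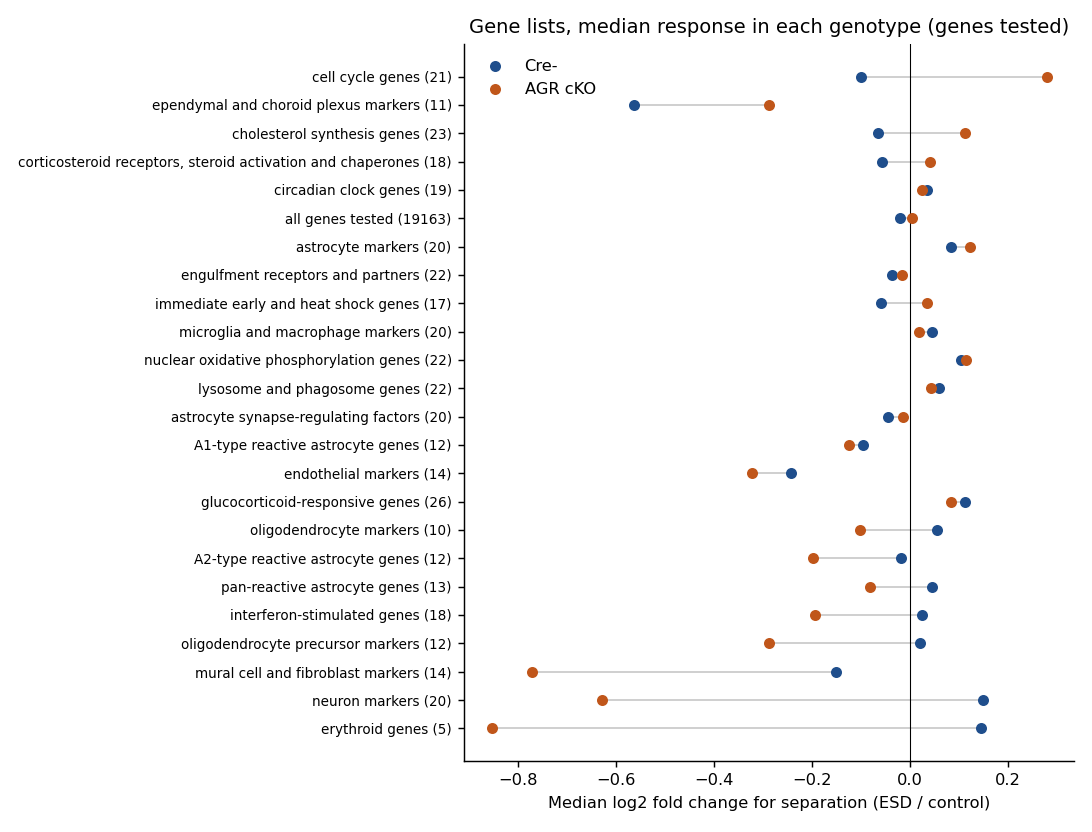
Median log2 response to separation (x axis) in Cre- (blue) and AGR cKO (orange) for 23 gene lists and for all genes tested (y axis, number tested in brackets). Neuron markers lie at 0.15 and -0.63, cholesterol synthesis genes at -0.06 and 0.11, and astrocyte markers at 0.08 and 0.12.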

How the data were processed

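Polyadenylated RNA of purified cortical astrocytes was sequenced from 12 samples. Per the submitters' processing notes, StringTie 1.3.4b, HISAT2 2.1.0, Bowtie2, HISAT, DESeq2 and Trimmomatic were used with build mm10. Their roles, and whether counting used the strand, are not given in the sources used here. The authors deposited whole read counts per gene. The deposited table also holds FPKM values, which were not used, and TPM values, used for levels between genes and as an alternative. The columns' cre_M and cre_P were read as Cre minus and Cre plus, which the labels do not spell out, and groups follow the titles, since the genotype entries count up with the replicate.

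Genes were filtered with filterByExpr, scaled by TMM and fitted with edgeR 4.0.16 in R 4.3.3 (quasi-likelihood, 1 mean per group over all 12 libraries, 8 residual degrees of freedom, common biological coefficient of variation 0.1945). The threshold was a two-sided Benjamini-Hochberg adjusted p under 0.05 over 19163 genes. The SE is the log2 value over the square root of F, and intervals use the t quantile. An exact permutation test of 3 against 3 cannot go below 0.1. CPM are counts over TMM-scaled library size. Alternatives were DESeq2 1.42.0, limma 3.58.1 on log2(TPM + 1) and log2(TPM + 0.1), other scalings, filters and thresholds, marker covariates, a replicate block and each library left out.

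Named were, per direction, the 12 genes with the smallest unadjusted p among annotated genes of at least 5 CPM, since 0 were called, 11 genes always given, and the 2 members of each list with the smallest p or those of highest level. Nr3c2, Hsp90ab1, Hsd11b1, Pros1, Fdps, Sqle, Rorb, Neurod2, Neurod6, Slc32a1, Sez6l2 and Il4i1 were named beyond this rule, after their values were seen. The members and the 23 lists were chosen with earlier results of these data known. The labels give no sequencing batch. A gene that the rule names on the lower side is not reported here, though counts include it.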

Additional observations from a re-analysis of the deposited data

How the results depend on the processing

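With edgeR or limma, 0 interaction genes were called under every alternative run, an adjusted p under 0.1 included. DESeq2 called 7 for the interaction, 25 for separation in Cre- and 18 in AGR cKO, and made Fzd10 (1.16), Cacng8 (0.54), Zbtb16 (-2.24) and Slc17a7 (-2.38) pass. The count at an unadjusted p under 0.05 was 334 with the neuron covariate and 547 for genes of at least 5 CPM (a choice made after seeing the data, which tests fewer genes), and ran from 628 to 1283 when each library was left out. Separation in Cre- had 2 called genes without both Cre- ESD 3 and AGR cKO ESD 1, also chosen after seeing the data, and 0 to 1 when each library was left out (1 without AGR cKO ESD 3). Genes with an interval within 1 log2 unit ran from 11004 to 11318 when each library was left out, and were 8129 with the neuron covariate.

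Some single genes changed sign. Megf10 stood at -0.0072 with no filter, -0.0042 with a filter at 1 CPM, -0.034 with the microglia and endothelial covariate, and -0.00022 and -0.00044 on TPM plus 1 and plus 0.1. With the neuron covariate Aldh1l1 stood at -0.12, Sox9 at -0.013 and Itm2a at 0.11. Without both libraries Fkbp5 stood at 0.19, Tsc22d3 at 0.13 and Hif3a at 0.10. Leaving out each library gave -0.12 to 0.17 for Megf10, -0.079 to 0.18 for Aldh1l1, -0.51 to 0.086 for Sgk1 and -0.71 to 0.13 for Tsc22d3. The cause of these changes was not tested.

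Whether replicate numbers pair the libraries was not settled. Deviations of same-numbered libraries correlated at -0.318 to 0.483, over 0.1 in 8 of 18 pairs. For other pairs they ran from -0.422 to 0.391, over 0.1 in 13 of 36. Of the 12 libraries, 7 correlated best with a library of their own number among those of other groups. With the replicate block 0 interaction genes were called and 1023 had an unadjusted p under 0.05, with Fzd10 at 1.14 and Zbtb16 at -2.25. Depth and 3 libraries a group limit what can be seen: below 5 CPM the median SE of the interaction was 0.569.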
